A study of Oryza sativa with 4 samples.

Results

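The genes for ribosomal proteins and translation factors were examined on 4 Affymetrix arrays of rice seedling leaves. A gene was a member if its symbol or a synonym was RPS, RPL or RPP plus a number, or started with EIF, EF-1 or EF1, with or without an Os prefix. By this name rule, which used no measured value, 36 of the 17905 genes paired with a probe set of their own were members, and they held 59 of 57258 rice probe sets. The members were nevertheless chosen with earlier results of these data known. Of these 36, 25 were ribosomal proteins (12 of the small and 13 of the large subunit), 6 were translation initiation factors and 2 were elongation factors. The other 3 members, *RPP13-1*, *RPP16* and *RPP17*, are phloem proteins of another family (a thioredoxin h and a pair of small phloem proteins that carry the synonyms *ERG3* and *ERG1*), so they are given apart. No acidic stalk protein of the ribosome was found by name. The log2 signal was 6 or more on every array for all 36 members, and 10 or more for 27 of them.

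The plants were rice of the cultivar Zhonghua 11 (ZH11), either wild type (WT) or carrying an RNA interference construct against *OsABA8ox3* (RNAi), which encodes an enzyme that breaks down abscisic acid (ABA). The methods name the RNAi plants as RNAi-9, 1 transgenic line with a single insertion, and describe the WT as ZH11 transformed with the pYL vector, whereas the label says ZH11 wild type. Seedling leaves were taken at 0 h, untreated, and after 2 h of 20% PEG, polyethylene glycol, which draws water from the roots as drying soil does, which gave WT 0 h, WT 2 h PEG, RNAi 0 h and RNAi 2 h PEG with 1 array each. There was no 2 h array without PEG, so PEG and time cannot be told apart, and the silenced gene was not paired with a probe set, so the RNAi label was not checked on it. With 1 array per condition no difference had a replicate check, no p-value or SD can be given, and precision is limited by having 4 arrays. A value here is the mean log2 signal over a gene's probe sets, and a gene was called higher or lower at over 2-fold, a difference of over 1 in log2.

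A ribosome joins a small subunit, which reads the mRNA, to a large subunit, which links the amino acids. Leaf cells hold cytosolic ribosomes and separate, bacterial-type ribosomes in the plastids and mitochondria, and most of the proteins of the organelle ribosomes are encoded in the nucleus. Initiation factors bring the small subunit to the capped end of an mRNA, and elongation factors deliver the amino acids. Genes for the proteins of one ribosome are known for being expressed together, at high levels in growing tissue.

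The median log2 signal of all probe sets was 5.32 to 5.45 on the 4 arrays, and 762 to 993 probe sets were listed at 0. Of 6 leaf marker genes, 5 were above 10.5 on every array, and their median genotype difference was 0.12 at 0 h and 0.18 at 2 h. The 6 root markers had medians of 3.24 to 5.26 and the 9 seed markers 3.77 to 5.20, although the silicon transporter gene *Lsi1* reached 10.17 and the globulin gene *GLB* 11.10. The median genotype difference of the root markers was 0.54 at 0 h (5 of 6 above 0) and −1.12 at 2 h (6 of 6 below 0, *Lsi1* by −0.68), and that of the seed markers 0.14 at both times. The part of these markers in the differences below was not tested. In leaf RNA, fewer cells of a type and less RNA per cell cannot be told apart.

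**Figure D1:**
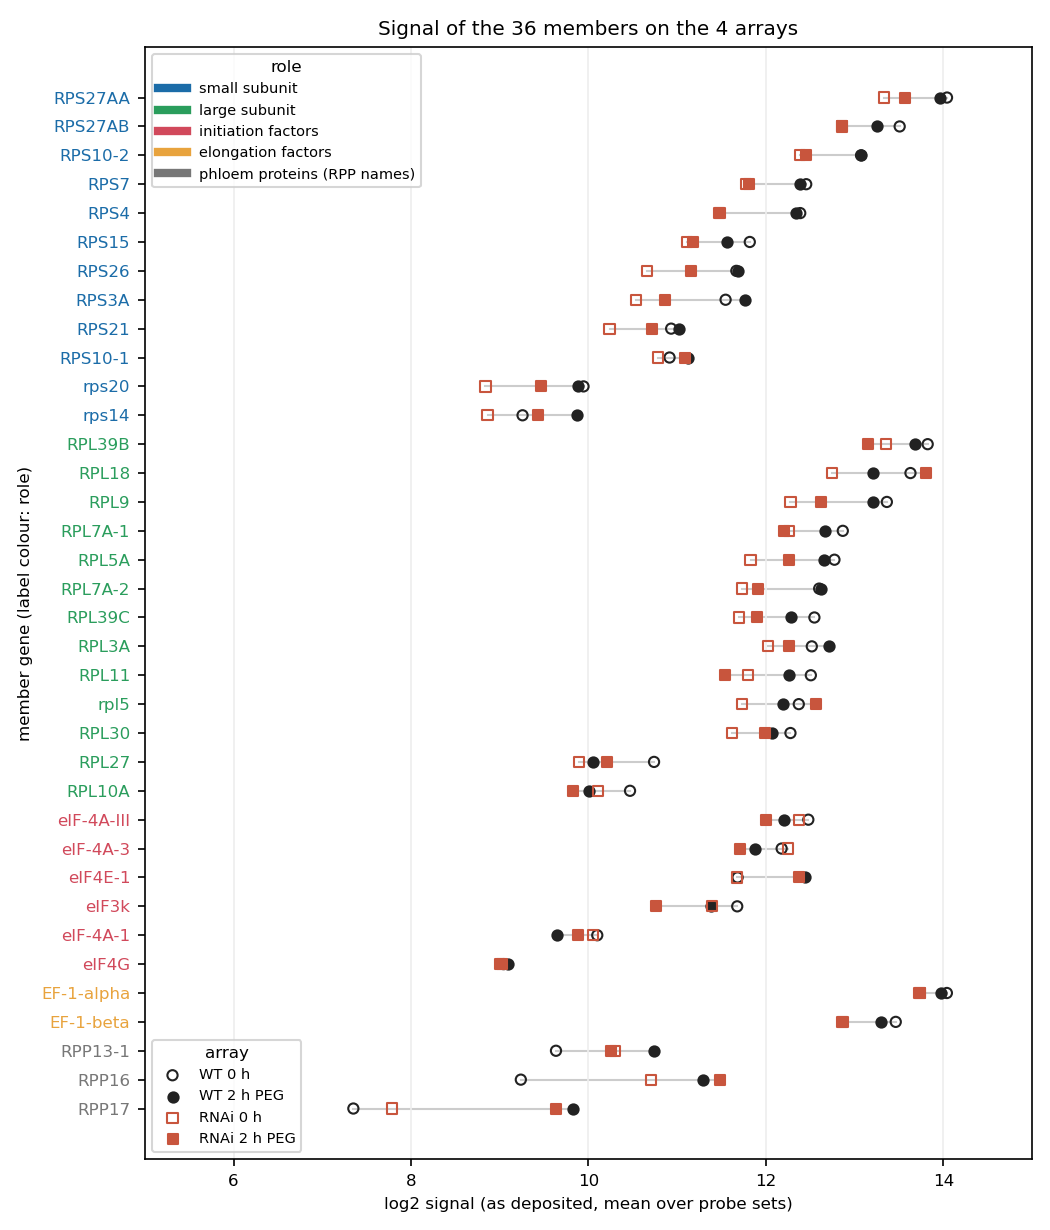
Log2 signal (x axis, mean over a gene's probe sets) of each of the 36 members (y axis, label coloured by role) on the 4 arrays. Open symbols are 0 h, filled symbols 2 h of PEG, circles WT and squares RNAi, and grey lines join the lowest and highest array. The RNAi 0 h square lies left of the WT 0 h circle for all 25 ribosomal proteins.

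Before PEG, transcripts of ribosomal proteins were lower in RNAi than in WT. All 25 genes lay below 0 in RNAi minus WT at 0 h, with a median log2 difference of −0.71, which is a signal 38.7% lower, and a range of −1.11 to −0.13. Over all 17905 genes the median difference was 0.03. The difference exceeded 1.5-fold for 20 of the 25, against 14.8% of all genes, and 2-fold for 4 of them (*RPS3A*, *RPS26*, *RPL9* and *rps20*), against 6.92% of all genes. Among genes at 10 or more on all arrays, 18 of 21 ribosomal proteins were over 1.5-fold lower against 6.80% of 4454 genes. The 41 probe sets of the 25 genes were all lower in RNAi at 0 h, with a median of −0.69.

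After 2 h of PEG most ribosomal protein transcripts were still lower in RNAi, by less. At 2 h, on arrays that the 0 h difference does not use, 22 of the 25 genes lay below 0, with a median of −0.42 (25.1% lower) and a range of −0.90 to 0.60. Of the 25, 5 were over 1.5-fold lower, against 15.3% of all genes, and these were 5 of the 21 with signals of 10 or more, against 5.25%. None was over 2-fold lower, against 6.84%. The same 22 genes (35 of the 41 probe sets) were below 0 at both times, whereas 30.7% of all genes and 33.4% of those at 10 or more were. Of the 36 members, 28 were below 0 at both times. The probe sets for ribosomal RNA on the array differed between RNAi and WT by −0.23 to 0.24 at 0 h and by −0.36 to 0.42 at 2 h. From 0 h to 2 h of PEG they changed by −0.54 to 2.60 in WT and by −0.35 to 2.51 in RNAi. The RNA was amplified from the 3′ end, and whether these probe sets follow the amount of ribosomal RNA was not tested.

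**Figure D2:**
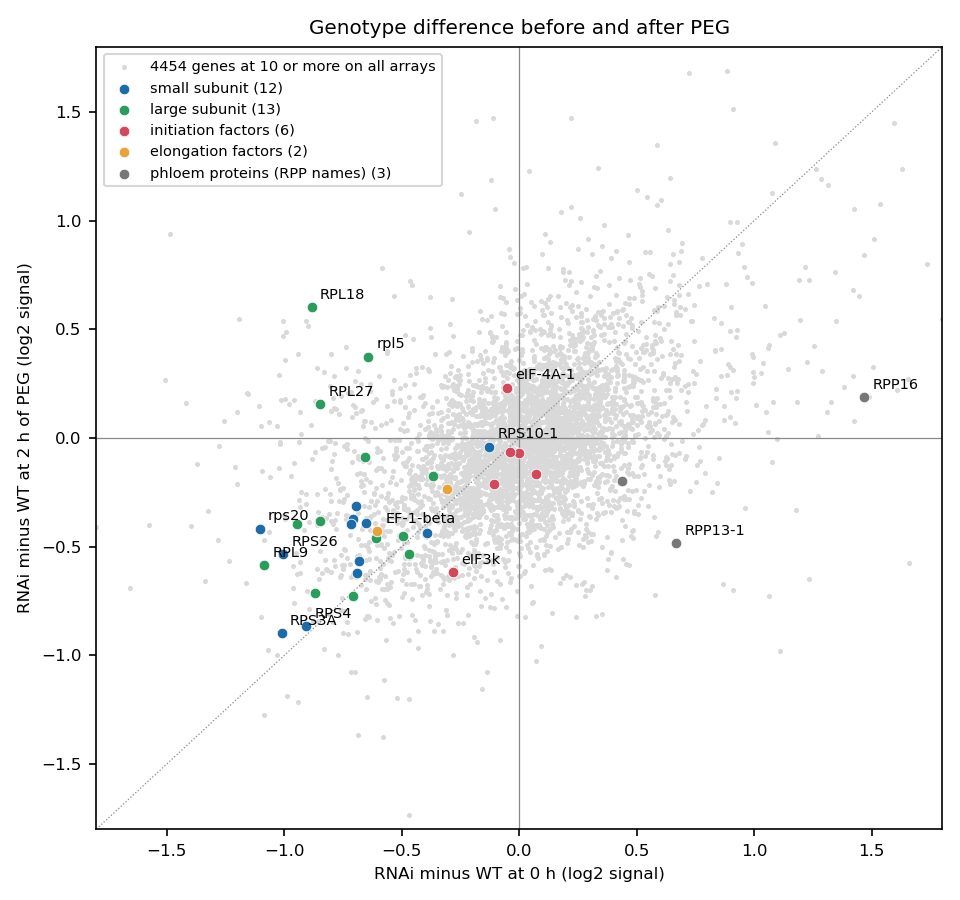
Log2 difference RNAi minus WT at 0 h (x axis) and at 2 h of PEG (y axis) for the 36 members by role, over the 4454 genes at 10 or more on all arrays in grey (a few lie outside the axes). The dotted line marks equal differences. Ribosomal proteins sit left of 0 at 0 h, with 22 of 25 at the lower left and *RPL18*, *rpl5* and *RPL27* at the upper left.

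In the small subunit the median difference was −0.70 at 0 h and −0.43 at 2 h, and all 12 genes were below 0 at both times. *RPS3A* (LOC4331966), a cytosolic protein of the small subunit, had signals of 11.55 in WT and 10.53 in RNAi at 0 h, and of 11.76 and 10.86 at 2 h. The WT signals were thus 2.02-fold higher before PEG (log2 difference −1.01), and −0.90 separated the genotypes after it. All 4 of its probe sets were lower in RNAi at both times, and the 3 with high signals had a mean difference of −0.92 at 0 h and −0.72 at 2 h.

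*RPS26* (LOC4327570), another cytosolic protein, was at 11.67 in WT and 10.66 in RNAi at 0 h and at 11.69 and 11.16 at 2 h. Its WT signal hardly moved with PEG, and the difference between genotypes went from −1.01 to −0.53. *RPS4* read 12.39, 12.34, 11.48 and 11.47 on WT 0 h, WT 2 h PEG, RNAi 0 h and RNAi 2 h PEG. Here both RNAi arrays lay below both WT arrays by about the same amount, −0.91 at 0 h and −0.87 at 2 h.

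The pair *RPS27AA* and *RPS27AB* encodes ubiquitin fused to a small subunit protein, so these transcripts supply ubiquitin as well as ribosomes. *RPS27AA* read 14.04, 13.96, 13.33 and 13.57 on the arrays in the same order, with differences of −0.71 and −0.40. *RPS27AB* read 13.51, 13.25, 12.86 and 12.86, with −0.65 and −0.39. In both genes, each RNAi array was below each WT array.

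*rps20* had the most negative mean difference at 0 h, −1.11 (2.15-fold), which rested on 1 probe set. That probe set, under 6 on all arrays, read 1.63 on RNAi 0 h and 4.62 on WT 0 h. With the other 3 probe sets the difference was −0.48 at 0 h and −0.42 at 2 h, in the range of the other genes, and without *rps20* the median of the remaining 24 genes at 0 h was −0.70.

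*RPS7*, *RPS10-2*, *RPS15* and *RPS21* had differences of −0.68, −0.69, −0.71 and −0.69 at 0 h and of −0.57, −0.62, −0.37 and −0.31 at 2 h. By gene means, *RPS10-1* was the small subunit gene that differed least, at 10.91 and 11.12 in WT and 10.79 and 11.08 in RNAi. Its differences were −0.13 and −0.04, while those of its paralog *RPS10-2* (13.07, 13.07, 12.38 and 12.45) were several times larger. Probe sets can share sequence with a near-identical copy, so the values of such pairs are uncertain.

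The large subunit had a median difference of −0.71 at 0 h and −0.40 at 2 h, with 13 of 13 and 10 of 13 genes below 0. *RPL9* (LOC4347422) read 13.36 and 13.20 in WT and 12.28 and 12.62 in RNAi. WT was 2.12-fold higher at 0 h (log2 difference −1.09), with −0.58 left at 2 h. Its single probe set is of a kind that can bind several transcripts.

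*RPL5A*, named for the protein that binds the small 5S RNA of the ribosome, read 12.77 and 12.65 in WT and 11.83 and 12.26 in RNAi. The difference was −0.95 at 0 h and −0.40 at 2 h, since the RNAi signal was 0.43 higher after PEG. *RPL7A-2* was at 12.60 and 12.63 in WT and at 11.73 and 11.91 in RNAi, and *RPL7A-1* at 12.87, 12.66, 12.26 and 12.20. Both genotype differences of *RPL7A-2* (−0.87 and −0.71) exceeded those of *RPL7A-1* (−0.61 and −0.46) on these arrays.

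*RPL11* stood out among large subunit genes in that its difference was no smaller after PEG. It read 12.51 and 12.27 in WT and 11.80 and 11.54 in RNAi, with −0.71 at 0 h and −0.73 at 2 h. *RPL39B*, a gene for one of the smallest ribosomal proteins, was alike in this, with 13.82, 13.68, 13.36 and 13.15 on the 4 arrays and differences of −0.47 and −0.53. *RPL39C*, by contrast, had −0.85 at 0 h and −0.38 at 2 h, by a single probe set that can bind several transcripts. The rest of the genes with a difference below 0 at both times were *RPL3A* (−0.50 and −0.45), *RPL10A* (−0.37 and −0.18) and *RPL30* (−0.66 and −0.09). At 2 h the probe sets of *RPL10A* were apart, at −0.49 for the one with a high signal and 0.14 for the other.

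Compartment was told by the name or synonyms for 12 of the 25 ribosomal proteins. The 9 cytosolic ones had a median difference of −0.71 at 0 h and −0.46 at 2 h, and by their means all 9 were below 0 at both times. Without probe sets of several transcripts, 7 of 8 were below 0 at 2 h. The 13 whose name does not tell the compartment had −0.69 and −0.42, with 13 and 12 below 0. The only mitochondrial member by name, *rps14*, had −0.39 and −0.44, with signals of 9.26 and 9.87 in WT and 8.86 and 9.43 in RNAi. The −0.39 owed most to a probe set at 5.80 in WT and 4.61 in RNAi at 0 h (−1.19). The other probe sets of *rps14* were at −0.11, −0.07 and −0.195 at 0 h and at −0.55, −0.24 and −0.33 at 2 h. Its locus also encodes a succinate dehydrogenase subunit, so its 4 probe sets may read either transcript.

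The 2 plastid members by name, *RPL18* and *RPL27* (synonyms *CL18* and *CL27*), were lower in RNAi before PEG and higher after it. *RPL18* (LOC4334651) read 13.63 in WT and 12.75 in RNAi at 0 h, and 13.20 and 13.81 at 2 h. The genotype difference went from −0.88 to 0.60, and RNAi 2 h PEG was the highest of the 4 arrays. *RPL27* (LOC4327257) read 10.74 and 9.89 at 0 h and 10.05 and 10.21 at 2 h, with differences of −0.85 and 0.16. All 3 probe sets of *RPL27* had this pattern, with −1.12, −0.74 and −0.68 at 0 h and 0.23, 0.01 and 0.23 at 2 h.

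*rpl5* (LOC4331459), whose compartment the name does not tell, was the third such gene. It read 12.37 and 12.19 in WT and 11.73 and 12.57 in RNAi, so that −0.64 at 0 h became 0.37 at 2 h. *RPL18* and *rpl5* have 1 probe set each, and that of *RPL18* can bind several transcripts. With a scaling to the hybridization controls instead, *RPL18* stayed higher in RNAi at 2 h while *RPL27* and *rpl5* were lower. Without these 3 genes, the other 22 ribosomal proteins were all below 0 at both times, with medians of −0.70 and −0.44. *OsrbcS*, a leaf marker that encodes the small subunit of the carbon-fixing plastid enzyme Rubisco, read 12.09, 11.79, 11.30 and 11.93, with genotype differences of −0.79 and 0.14. The other 5 leaf markers went the other way at 0 h, with differences of 0.11 to 0.13, among them *RBCS-A*, another gene for the small subunit of Rubisco, at a low signal of about 5. *OsrbcS* was chosen after its values were seen, and what it and the plastid members have in common was not tested.

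For the initiation factors, the genotype difference at 0 h was, by gene means, close to that of all genes. Their median was −0.04 at 0 h and −0.12 at 2 h, and of the 6 none at 0 h and 1 at 2 h was over 1.5-fold lower, against 14.8% and 15.3% of all genes. With the highest probe set of each gene, their median at 0 h was −0.18, beside 0.02 for all genes. *eIF4E-1*, the protein that binds the mRNA cap, read 11.68 in both genotypes at 0 h and 12.44 and 12.38 at 2 h. *eIF4G*, the scaffold that joins the cap-binding protein to the ribosome, read 9.04, 9.09, 9.01 and 9.03. By their means, neither gene differed by as much as 0.1 between the genotypes at either time, although the 4 probe sets of *eIF4G* ran from −0.25 to 0.29 at 0 h and from −0.52 to 0.17 at 2 h.

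The 3 genes named eIF-4A encode RNA helicases, of which the one called *eIF-4A-III* is known as a core protein of the exon junction complex. *eIF-4A-3* differed by 0.07 at 0 h and −0.16 at 2 h, and *eIF-4A-III* by −0.11 and −0.21. *eIF-4A-1* had a mean difference of −0.05 at 0 h over probe sets that did not go together. Its 2 probe sets with high signals were at −0.43 and −0.68, and a low one was at 0.96. *eIF3k*, a subunit of the factor that holds the small subunit ready, was the initiation factor with the most negative difference, −0.28 at 0 h and −0.62 at 2 h (11.68 and 11.38 in WT, 11.40 and 10.76 in RNAi).

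Both elongation factors were lower in RNAi at both times. *EF-1-beta*, which recharges *EF-1-alpha* with GTP, read 13.46 and 13.30 in WT and 12.86 and 12.87 in RNAi, with differences of −0.60 and −0.43. *EF-1-alpha*, which brings aminoacyl-tRNA to the ribosome, read 14.04, 13.97, 13.73 and 13.74, with −0.31 and −0.23. Each RNAi array was below each WT array in both genes, but both probe sets of *EF-1-alpha* are of a kind that can bind several transcripts.

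**Figure D3:**
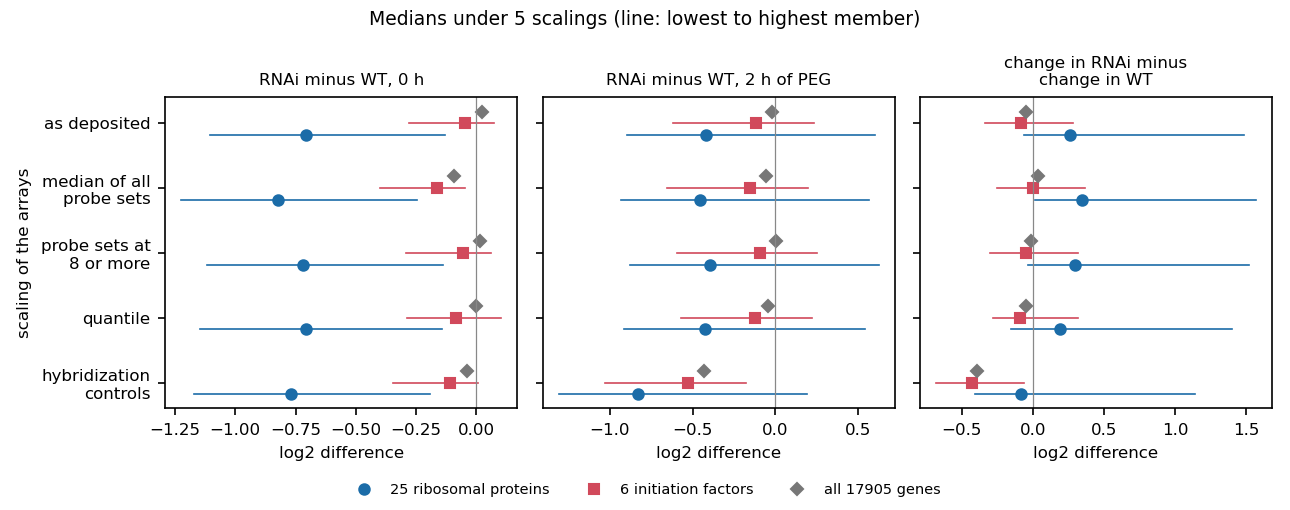
Median log2 difference (x axis) of the 25 ribosomal proteins (blue circles), 6 initiation factors (red squares) and all 17905 genes (grey diamonds) under 5 scalings of the arrays (y axis), for RNAi minus WT at 0 h and 2 h and for the difference of the changes after PEG. Coloured lines run from the lowest to the highest member, not over an error, and the ribosomal line lies wholly left of 0 at 0 h under each scaling.

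Under other scalings the median difference at 0 h stayed close to its deposited value, but most of these scalings moved all genes alike. Over 9 other settings, 4 of them other scalings, the median of the ribosomal proteins at 0 h ran from −0.82 to −0.68, with every ribosomal protein measured below 0 in all 9. Each of the scalings except quantile normalization moved all genes alike, at 0 h by −0.06, −0.12 and −0.01. Such scalings could not change the gap between the ribosomal proteins and all genes. Keeping only genes at 6 or more on all arrays could change nothing, since every member passed. Taking the highest probe set could not change genes with 1 probe set. At 2 h the median of the ribosomal proteins ran from −0.83 to −0.39. The value of −0.83 came from scaling to the 9 hybridization controls, which shifted every gene's difference at 2 h by −0.41. The median of all genes under that scaling was −0.43, and by arithmetic a common shift leaves the gap to it unchanged. As a measure of RNA quality, the 3′ minus 5′ log2 signal of actin was 4.74 on WT 0 h, 4.51 on RNAi 0 h, 4.33 on WT 2 h PEG and 4.28 on RNAi 2 h PEG. In the same order that of Gapdh was 2.64, 2.74, 2.33 and 2.53. Ubiquitin had 0.21, 0.34, −0.15 and −0.18, and cyclophilin 0.63, 0.67, 0.19 and 0.33. The part of RNA quality in the differences was not tested.

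From 0 h to 2 h of PEG, few members changed by over 2-fold. After PEG in WT, 3 of the 36 members were over 2-fold higher, against 17.5% of all genes, and none was over 2-fold lower, against 15.6%. The 3 were the phloem proteins, so no ribosomal protein or translation factor was called in WT. In RNAi, 2 members (*RPL18* and *RPP17*) were over 2-fold higher, against 16.0%, and none was lower, against 15.7%. The median change of the members was −0.10 in WT and 0.19 in RNAi, beside −0.18 and −0.19 for all genes.

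For ribosomal proteins the median change after PEG was −0.12 in WT and 0.24 in RNAi. In WT, 18 of the 25 were below 0 (13 when scaled to probe sets at 8 or more, with a median of −0.01), and in RNAi 20 of the 25 were above 0 (12 when scaled to the hybridization controls, with a median of −0.03). Of all 17905 genes, 10304 were below 0 in WT and 7472 above 0 in RNAi, with medians of −0.18 and −0.19. The ribosomal median in WT was thus less negative than that of all genes, but this depended on the setting. It was more negative after quantile normalization (−0.17 against −0.14) and with signals under 6 raised to 6 (−0.14 against 0.0). With an offset of 32 the medians were −0.1416 and −0.1375. Among the 25, 13 were below 0 in WT and above 0 in RNAi, as were 15 of the 36 members, against 10.7% of all genes. Each such change shares its 0 h array with the genotype difference at 0 h, so these are not separate observations. The change in RNAi minus the change in WT had a median of 0.26 for ribosomal proteins and −0.05 for all genes, and when scaled to the hybridization controls it was −0.09 and −0.40.

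**Figure D4:**
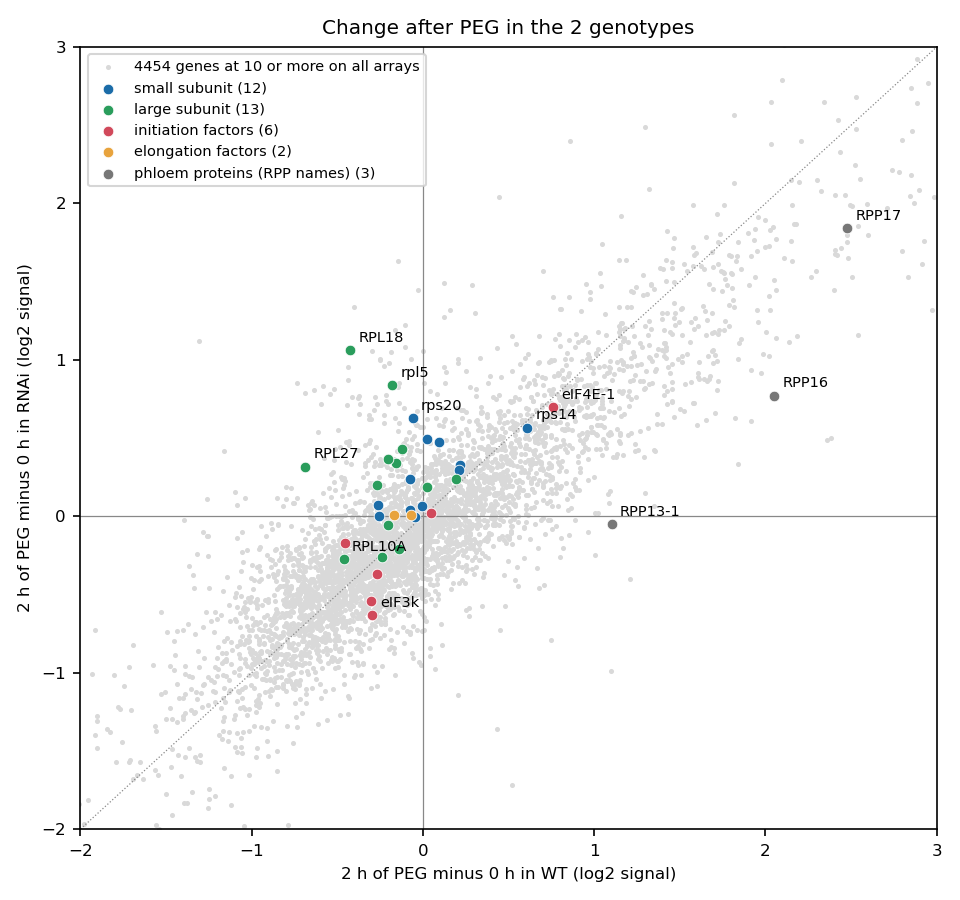
Log2 change from 0 h to 2 h of PEG in WT (x axis) and in RNAi (y axis) for the 36 members by role, over the 4454 genes at 10 or more on all arrays in grey (some lie outside the axes). The dotted line marks equal changes. Most ribosomal proteins lie within 0.5 of 0 on both axes and above the dotted line, *RPL18* has −0.43 in WT and 1.06 in RNAi, and the phloem proteins lie to the right.

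Among ribosomal proteins, *RPL18* had the widest gap between its changes, −0.43 in WT and 1.06 in RNAi, a difference of changes of 1.49. *rpl5* changed by −0.18 and 0.84 (difference 1.02) and *RPL27* by −0.69 and 0.32 (difference 1.004). *RPL30* (−0.20 and 0.36), *RPL5A* (−0.12 and 0.43) and *RPL9* (−0.16 and 0.34) had differences of 0.57, 0.55 and 0.50, and that of *rps20* was 0.69 by its mean but 0.05 without its low probe set. The 2 plastid members kept a positive difference of changes under the other settings, with a median from 0.90 to 1.33 over 9 of them, of which the one without probe sets of several transcripts held *RPL27* only.

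By its mean, *rps14* was higher after PEG by a similar amount in both genotypes, 0.61 in WT and 0.57 in RNAi, as were, by less, *RPL3A* (0.19 and 0.24) and *RPS10-1* (0.21 and 0.30). *RPL10A*, which read 10.47, 10.01, 10.10 and 9.83, was lower in both, by −0.46 and −0.27. *rps20* had a mean change of −0.06 in WT and 0.63 in RNAi, but −0.53 and −0.47 without its low probe set. By its other 3 probe sets it had almost equal changes in the genotypes.

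The initiation factors had a median change of −0.28 in WT and −0.27 in RNAi, below the median of all genes in each. With the highest probe set of each gene the RNAi median was −0.13, above the −0.20 of all genes. *eIF4E-1* went the other way, higher after PEG by 0.76 in WT and 0.70 in RNAi. *eIF3k* was lower by −0.30 and −0.63, *eIF-4A-3* by −0.31 and −0.54, *eIF-4A-III* by −0.27 and −0.37, and *eIF-4A-1*, by its mean, by −0.45 and −0.17. None of these reached 2-fold. In RNAi the lower mean of *eIF-4A-1* rested on a low probe set that read 6.88 and 5.44 (−1.44). Its probe sets with high signals were higher after PEG in RNAi, by 0.23 and 0.70. In WT they changed by −0.25 and −0.14 and the low one by −0.98. *eIF4G* changed by 0.04 and 0.02 and the elongation factors by −0.17 to 0.01, so their signals were almost level over the 2 h.

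The phloem proteins, which are no part of translation, held the 3 members called in WT. *RPP17* read 7.35 on WT 0 h and 9.83 on WT 2 h PEG, and 7.79 and 9.63 in RNAi, and was the only member past 2-fold with PEG in WT and in RNAi alike (log2 changes of 2.48 and 1.84). *RPP16* read 9.24 and 11.29 in WT and 10.71 and 11.48 in RNAi. It was the only member over 2-fold higher in RNAi at 0 h (1.47, against 10.6% of all genes), and with 0.19 at 2 h none of the 36 was over 2-fold higher there, against 9.29%. *RPP13-1* was over 2-fold higher after PEG in WT (1.10) on account of a probe set at 4.92 to 6.99, while its other probe set stayed between 14.30 and 14.50.

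Other genes of translation, listed by name, were mostly lower in RNAi as well. Of 15 such genes in 6 lists (aminoacyl-tRNA synthetases, other elongation factors, a poly(A) binding protein, TOR signalling, ribosome assembly and ribosome-associated proteins), 13 were below 0 at 0 h and 14 at 2 h, with medians of −0.35 and −0.59. Of all 17905 genes, 8542 were below 0 at 0 h and 9236 at 2 h, with medians of 0.03 and −0.02. Over 2-fold lower at 0 h were 2, *RACK1A* and *QM1*, against 6.92% of all genes. *RACK1A*, a scaffold protein on the small subunit, read 12.19, 11.96, 11.13 and 10.98, with differences of −1.07 and −0.97, and *RACK1B* had −0.91 and −0.71. Both RNAi arrays were below both WT arrays for *RACK1A*, as for *RPS4* and *RPS3A*.

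*QM1*, a name used for the large subunit protein L10, had −1.46 at 0 h, which rested on 1 probe set that read 4.81 in WT and 0.19 in RNAi. The other 3 probe sets of *QM1* were at −0.22, −0.28 and −0.73. At 2 h, 1 of the 15 was over 2-fold lower, the elongation factor gene *EF-Ts* (−1.18, at signals of 4.11 to 5.71), against 6.84%. After PEG in WT, 1 was over 2-fold higher (*QM1*, against 17.5%) and 1 over 2-fold lower (against 15.6%), where *RRP46*, a subunit of the exosome that trims ribosomal RNA, changed by −1.66. The call of *QM1* in WT rested on 1 probe set that read 6.26 and 11.18, while its 2 probe sets with high signals changed by 0.21 and 0.46 in WT and by 0.15 and 0.57 in RNAi. In RNAi 1 was higher (*QM1*, against 16.0%) and 3 were lower (against 15.7%, a similar share), *RRP46* (−1.70), *EF-Ts* (−1.15) and *SRP14* (−1.14), a protein of the signal recognition particle.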

How the data were processed

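Total RNA of seedling leaves was extracted with TRIzol, purified on RNeasy columns, amplified from the 3′ end, labelled with biotin and hybridized to Affymetrix Rice Genome Arrays. The authors collected and normalized the data with GCOS (MAS5 is named in the submitters' processing notes, version not given in the sources used here) and deposited log2 signals. No floor or filter was applied to them here. Of the rice probe sets, 22531 were in the annotation and 22436 had 1 gene. Names came from that annotation and a RefSeq gene table (assembly ASM3414082v1, names only). Probe sets of a gene were averaged, leaving aside 123 control probe sets. Arrays were compared by subtraction, with no test. Members and lists were chosen with earlier results of these data known. Genes were named by rank of mean change, difference of changes, genotype difference and mean signal after raising signals under 6 to 6, all members being accounted for. Genes of the other lists, and the leaf marker *OsrbcS*, were named after their values were seen. Alternatives were other scalings, probe set rules, floors, offsets and thresholds. Python 3.11.15, pandas 2.3.3 and NumPy 2.4.6 were used, and the calculation was tested on simulated data. Promoter motifs were not analysed here.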

Additional observations from a re-analysis of the deposited data

Results flagged for a closer look

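The changes after PEG had opposite signs in WT and RNAi, under the deposited scaling and 4 others, for 6 ribosomal proteins. The change in RNAi minus the change in WT was 1.49 for *RPL18*, 1.02 for *rpl5*, 1.004 for *RPL27*, 0.57 for *RPL30*, 0.55 for *RPL5A* and 0.50 for *RPL9*, each lower in WT and higher in RNAi after PEG. With 1 array per condition the difference was not tested.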

How the results depend on the processing

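No paired analysis was possible because each condition has 1 array. The median genotype difference of all members at 0 h (−0.65) kept its size under every alternative run. Scalings by a constant per array could only shift all genes alike. At 2 h (−0.39) it was −0.81 when scaled to the hybridization controls. The median change after PEG in WT (−0.10) was −0.19 when scaled to the median of all probe sets, 0.0081 to probe sets at 8 or more, −0.0258 to the hybridization controls, −0.17 after quantile normalization, −0.15 with the highest probe set and −0.21 by symbol only, which leaves 1 gene. That in RNAi (0.19) was 0.13 with signals under 6 raised to 6, 0.33 scaled to probe sets at 8 or more, −0.0824 to the hybridization controls, 0.11 after quantile normalization and without probe sets of several transcripts, 0.13 with an offset of 32 and −0.0564 by symbol only. The median difference of changes (0.13) was 0.21 when scaled to the median of all probe sets, −0.22 to the hybridization controls and 0.26 for ribosomal proteins only. The cause of these shifts was not tested.

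Of members over 2-fold changed after PEG in WT (3), 0 were left by symbol only, without the phloem proteins, at signals of 10 or more, or among ribosomal proteins, and 6 passed 1.5-fold. In RNAi (2), 1 was left with the hybridization controls, quantile normalization, no probe sets of several transcripts, no phloem proteins, signals of 10 or more, ribosomal proteins only or a 3-fold threshold, 0 by symbol only, and 7 passed 1.5-fold. At 0 h (5 members different), there were 8 when scaled to the median of all probe sets, 3 with the highest probe set or signals of 10 or more, 2 with the offset, 0 by symbol only or at 3-fold, and 23 at 1.5-fold. At 2 h (0), there were 6 with the hybridization controls, 1 without probe sets of several transcripts and 7 at 1.5-fold. The settings without phloem proteins, with signals of 10 or more and with ribosomal proteins only were chosen after seeing the data. Of 1595 values of single genes, 1502 kept their direction. Some of these values could not differ, those of genes at 6 or more on all arrays and those of the highest probe set for genes with 1 probe set. Among 15 over 2-fold, *RPP13-1* reversed, its difference of changes (−1.15) being 0.0703 with its highest probe set. Signals near the background limit the values of *rps20*, *rps14*, *eIF-4A-1*, *QM1*, *EF-Ts* and *RPP13-1*. The planned search for promoter motifs was not run.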
